A study of Mus musculus with 48 samples.

Results

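The genes described here are 34 mouse genes of glycolysis and of the transcriptional response to low oxygen, followed across every macrophage population of the study. They were chosen by gene symbol. All 34 were found among the 51789 genes of the deposited count table, and all 34 had enough counts to be tested in each kind of macrophage. By role they fall into glucose uptake and the hexokinase step (Slc2a1, Hk1, Hk2, Hk3), upper glycolysis (Gpi1, Pfkl, Pfkm, Pfkp, Aldoa, Aldoc, Tpi1), its regulators (Pfkfb3, Pfkfb4) and lower glycolysis (Gapdh, Pgk1, Pgam1, Eno1, Eno2, Pkm). The others belong to lactate and pyruvate handling (Ldha, Slc16a3, Pdk1), oxygen sensing (Hif1a, Egln1, Egln3) and further targets of low oxygen (Vegfa, Bnip3, Bnip3l, P4ha1, P4ha2, Ankrd37, Ndrg1, Adm, Hilpda).

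Glycolysis splits glucose into pyruvate in the cytoplasm, and lactate dehydrogenase and a lactate exporter carry the product away when it does not enter the mitochondria. The factor HIF, whose subunit Hif1a is marked for destruction by the Egln prolyl hydroxylases when oxygen is present, binds a short element with the core letters ACGTG and raises transcription of most of these genes in low oxygen. Macrophages activated with bacterial lipopolysaccharide and interferon-γ are known to raise glycolysis also at normal oxygen, whereas activation by interleukin-4 is known for a greater use of fatty acid oxidation.

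The study compared macrophages exposed for 4 h to 10 µM AP-3-84, a compound given in the labels by its code name, with macrophages exposed to the solvent DMSO, here called vehicle. There were 48 libraries in 16 groups of 3. The peritoneal macrophages were F4/80+ cells taken with magnetic beads either from the ascites of mice 45 days after injection of the ovarian tumour line ID8 or from the peritoneum of C57BL/6 mice 4 days after 1 ml of 3% thioglycollate, an irritant. The mice of the ascites groups carry the genotype label B6(Cg)-Tyrc-2J/J, an albino line, and those of the thioglycollate groups the label wild-type, so that ascites and mouse line cannot be told apart. The other 12 groups were bone marrow-derived macrophages, grown with 10 ng/mL of the growth factor M-CSF over 6 days, from wild-type mice or mice lacking p53, both with the strain label C57BL/6. They were left as M0, polarized to M1 for 24 h with 100 ng/mL lipopolysaccharide and 50 ng/mL interferon-γ, or polarized to M2 for 24 h with 10 ng/mL interleukin-4 and 10 ng/mL interleukin-13. The titles name the p53 knockout libraries, although their genotype field reads wild-type. The labels do not say whether M0 cells were kept for the same extra time, nor whether replicates came from separate mice or cultures, so p-values measure the spread between these libraries, which may be technical.

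Libraries were made from 100 ng of RNA with a kit that reads the 3′ ends of transcripts. They held between 15532373 and 19417581 counts in the peritoneal cells and between 3081707 and 4645148 in the bone marrow-derived cells. Levels are given as CPM, counts scaled per library to a common depth, using the trimmed mean of M-values (TMM), per library and in replicate order, and are compared within a gene only. A gene is said to have risen, fallen or changed where the adjusted p of edgeR's quasi-likelihood test, taken over all genes of the fit, was under 0.05. The targeted genotype was checked through p53 target genes. Phlda3 lay at 9.17 to 40.5 CPM in the 18 wild-type libraries and at 0 to 1.31 CPM in the 18 knockout libraries. Cdkn1a (555 to 1119 against 34.1 to 292 CPM) and Ccng1 (74.8 to 240 against 25.1 to 43.8 CPM) did not overlap either. Mdm2 (146 to 444 against 52.8 to 218 CPM) and Trp53 itself (4.79 to 13.2 against 2.70 to 9.11 CPM) did overlap. The macrophage genes Adgre1, which encodes F4/80, and Csf1r were present in all 48 libraries, at no less than 193 and 843 CPM. Cd68, Itgam and Lyz2 were at no less than 350, 205 and 3091 CPM. The macrophage genes Mertk and Fcgr1 went down to 20.4 and 3.06 CPM. Some libraries stood apart in marker genes of other states. The wild-type M2 vehicle replicate 1 held 2150 CPM over 10 M1 marker genes and 3954 CPM over 8 neutrophil genes, against at most 634 and 577 CPM in the other 2 libraries of its group. Neutrophil genes also reached 3285 CPM in knockout M2 vehicle replicate 3, and 3655 CPM in knockout M1 AP-3-84 replicate 1, against 781 and 728 CPM in the other libraries of the latter group. The 3 knockout M0 vehicle libraries held only 34.6 to 38.8 CPM over the M1 marker genes, against 338 to 778 CPM in wild-type M0 vehicle.

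The promoter windows of these genes often held the HIF core letters. RefSeq promoter windows of assembly GRCm38.p6, from 250 bases before to 50 bases after a transcript start, were matched by symbol for 32 of the 34 genes, all except Bnip3l and Ndrg1. The letters ACGTG, on either strand and within the 250 upstream bases, were present in 48.9% of the 47 windows of these genes and in 16.6% of 32851 windows of all genes. The related letters GCGTG were present in 53.2% and 28.2%. The member windows also had a higher mean GC content, 60.3% against 53.2%, so these shares are a description only, and a match is not evidence of a bound site. ACGTG was found for 20 of the 32 genes. The 5 stretches below were taken from such genes, whose levels are described next, and show the setting of the matches. Each is printed 5′ to 3′ on the strand of its gene. The capitals mark every match to ACGTG on either strand, which reads CACGT in the reverse direction and CACGTG where both overlap.
Ldha, chr7:46845644-46845803, plus strand: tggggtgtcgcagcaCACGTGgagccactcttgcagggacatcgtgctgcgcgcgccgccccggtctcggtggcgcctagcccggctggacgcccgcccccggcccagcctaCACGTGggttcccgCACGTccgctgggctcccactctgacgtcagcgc
Pgk1, chrX:106186940-106187099, plus strand: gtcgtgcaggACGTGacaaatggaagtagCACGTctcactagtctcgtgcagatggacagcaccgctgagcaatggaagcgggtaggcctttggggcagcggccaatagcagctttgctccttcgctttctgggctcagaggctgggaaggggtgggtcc
Slc16a3, chr11:120948907-120949052, plus strand: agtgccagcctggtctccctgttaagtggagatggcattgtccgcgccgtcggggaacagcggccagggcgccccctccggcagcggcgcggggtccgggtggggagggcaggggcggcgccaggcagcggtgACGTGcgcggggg
Bnip3, chr7:138909520-138909666, minus strand: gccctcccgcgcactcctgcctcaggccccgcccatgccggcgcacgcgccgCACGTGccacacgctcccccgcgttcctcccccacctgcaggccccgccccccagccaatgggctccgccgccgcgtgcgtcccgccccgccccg
Hk2, chr6:82774455-82774614, minus strand: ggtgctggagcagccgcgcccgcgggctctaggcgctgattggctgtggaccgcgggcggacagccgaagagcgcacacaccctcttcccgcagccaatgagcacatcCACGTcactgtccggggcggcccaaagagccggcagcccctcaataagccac
Ldha, which converts pyruvate to lactate, had 5 matches counted over both strands in the 250 bases before the start shown here. Its other window had 0. The bases after the Ldha start shown were found near the beginning of 0 annotated Ldha transcripts, unlike for the other genes shown. Pgk1, Bnip3, Slc16a3 and Hk2 had 2 each. The stretches are shorter than the window, and those of Slc16a3 and Hk2 hold only 1 of their 2 matches.

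Across the 6 vehicle populations of bone marrow-derived macrophages, the set was highest after M1 polarization and low in knockout cells without it. The mean level was highest in wild-type M1 for 20 of the 34 genes and in knockout M1 for 8. It was lowest in knockout M2 for 14 genes and in knockout M0 for 12. These ranks were not counted over all genes, so they are not shown to be particular to the set. Pfkm, the muscle-type phosphofructokinase, Eno2, Ankrd37 and Adm stayed under 10 CPM on average in every bone marrow-derived group. The map of all genes by library shows higher values in both M1 populations for most genes, a separate rise of Pfkp in M2 cells, and low values of Slc2a1, Pgk1 and Tpi1 in knockout M0 vehicle cells.

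**Figure D1:**
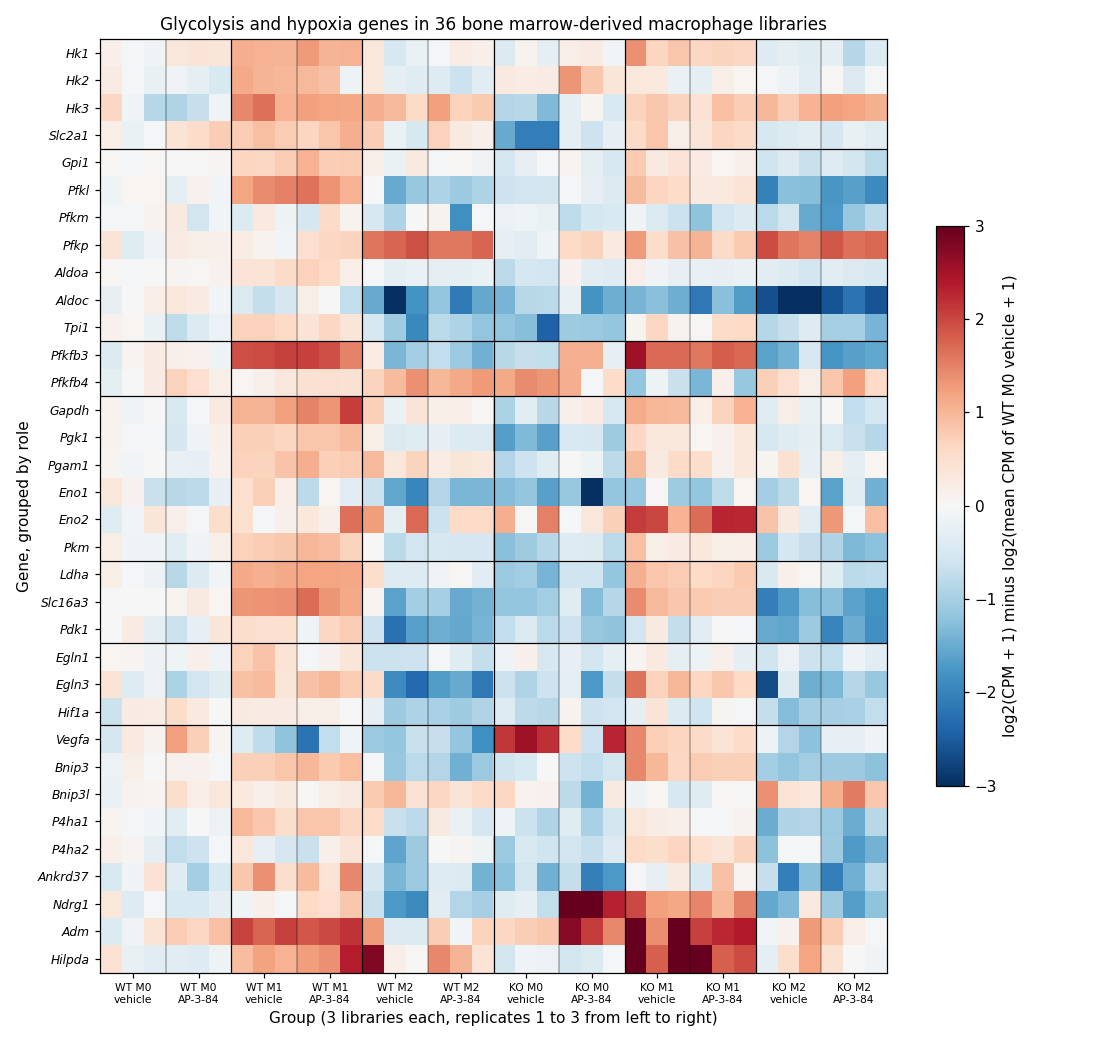
Level of each of the 34 genes (rows, grouped by role) in each of the 36 bone marrow-derived libraries (columns, 3 per group), as the difference in log2(CPM + 1) from the mean of wild-type M0 vehicle. Red is higher and blue lower, with the colour scale ending at 3 in either direction; Ndrg1 is dark red in the knockout M0 cells given AP-3-84, where it reached 213 to 700 CPM.

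The first question was which of these genes differ between M1 and M0 cells without the compound. In wild-type vehicle cells 18 of the 34 genes rose and 0 fell, where 8.01% of the 11779 genes tested rose, 7.49% fell and 15.5% changed in all. The median log2 fold change of the set was 0.72, beside 0.00 for all genes tested. All 4 genes of glucose uptake and the hexokinase step rose, as did 3 of 7 in upper glycolysis, 4 of 6 in lower glycolysis, Ldha and Slc16a3, and 3 of 9 further hypoxia targets. In bulk libraries like these, a change in the share of cells and a change in RNA per cell cannot be told apart.

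At the entry of the pathway, the hexokinase gene Hk2 was at 137, 110 and 97.6 CPM in wild-type M0 and at 256, 234 and 231 CPM in M1. The groups did not overlap, and the log2 fold change was 1.06 ± 0.23 (SE, n = 3 per group, edgeR adjusted p = 0.00158). Hk1 rose by a like amount, from 73.9–89.5 to 162–173 CPM (1.06 ± 0.18, edgeR adjusted p = 0.000114). Hk3, a hexokinase found mainly in myeloid cells, was at 70.9, 41.6 and 25 CPM in M0 and at 127, 146 and 95.7 CPM in M1, with more scatter among the M0 libraries than for Hk2 (1.42 ± 0.24, edgeR adjusted p = 0.000134). Slc2a1, the main glucose transporter of activated macrophages, rose from 78.5, 59.5 and 65.9 to 117, 127 and 115 CPM (0.81 ± 0.22, edgeR adjusted p = 0.009); this call was lost without wild-type M0 vehicle replicate 2, with an adjusted p of 0.0589.

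In the middle of the pathway the largest rise was that of Pfkfb3, which makes the activator of phosphofructokinase. It was at 26.0, 37.5 and 41.9 CPM in M0 and at 138, 140 and 148 CPM in M1, 2 groups far apart (2.01 ± 0.34, edgeR adjusted p = 0.000137). Of the phosphofructokinase subunits only the liver type, Pfkl, rose (54.1, 61.7 and 60.8 to 134, 158 and 170 CPM, 1.39 ± 0.23, edgeR adjusted p = 8.62e-05), whereas the platelet type Pfkp lay at 40.4 to 68.9 CPM in M0 and 49.1 to 61.4 CPM in M1. In lower glycolysis Gapdh had a log2 fold change of 1.11 ± 0.24 (edgeR adjusted p = 0.00195), and Pgk1, Pgam1 and Pkm, the last being pyruvate kinase, had 0.70, 0.75 and 0.75. Eno1 is uncertain throughout. This is because 2 near copies, Eno1b and Gm4735, share 80% and 55.3% of its 50-base stretches at the 3′ end and hold many of its reads. From its own reads the log2 fold change of Eno1 was 0.48 and did not pass (edgeR adjusted p = 0.544). With the reads of the copies added, which was chosen after seeing the data, it was 0.79 (edgeR adjusted p = 0.00302).

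At the exit of the pathway both the enzyme and the exporter of lactate rose. Ldha went from 673, 590 and 537 CPM to 1314, 1258 and 1326 CPM (1.11 ± 0.20, edgeR adjusted p = 0.000261). Slc16a3, the monocarboxylate transporter that exports lactate, was at 93.1, 93.9 and 93.3 CPM in M0 and at 237, 241 and 245 CPM in M1 (1.37 ± 0.26, edgeR adjusted p = 0.000568). Pdk1, the kinase that keeps pyruvate out of the mitochondria, was at 24.0 to 34.6 CPM in M0 and 41.0 to 42.9 CPM in M1 and did not pass the test. Among the further targets of low oxygen, Adm, the gene of the peptide adrenomedullin, had the largest fold change, from 0, 0.239 and 0.767 to 4.47, 3.44 and 4.53 CPM (3.56 ± 0.88, edgeR adjusted p = 0.00542). With so few M0 counts this value moved, and it was 4.81 without wild-type M0 vehicle replicate 3 and 2.98 without replicate 1. The mitophagy receptor Bnip3 rose by 0.77 on the log2 scale and the collagen prolyl hydroxylase P4ha1 by 0.80. P4ha1 lost its call without any of 5 of the 6 libraries, to an adjusted p of 0.113 at most, and Aldoa and the oxygen sensor Egln1 each lost theirs without any of 3. Hilpda, a lipid droplet protein, did not overlap between the groups but did not pass the test (1.09 ± 0.56, edgeR adjusted p = 0.207, and 2.37e-05 with no filter on low counts). When libraries were scaled to their total counts alone, 10 genes rose and 1 fell, where 22.1% of all genes tested changed. The median of all genes tested moved by -0.30 on the log2 scale.

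In p53 knockout cells the same comparison called more of the set: 23 genes rose and 2 fell, where 22.8% of all genes tested rose, 21.8% fell and 44.5% changed in all. The median log2 fold change was 1.28, beside -0.01 for all genes. Of the genes that rose, 16 also rose in wild-type cells, which is 16 of the 18 in wild-type and 16 of the 23 in knockout cells. The exceptions in wild-type cells were Hk2 and Egln1. The same overlap was not counted over all genes, so it is not shown to be particular to the set. The plot of both genotypes by gene shows the shared part, and also that several knockout values lie further to the right.

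**Figure D2:**
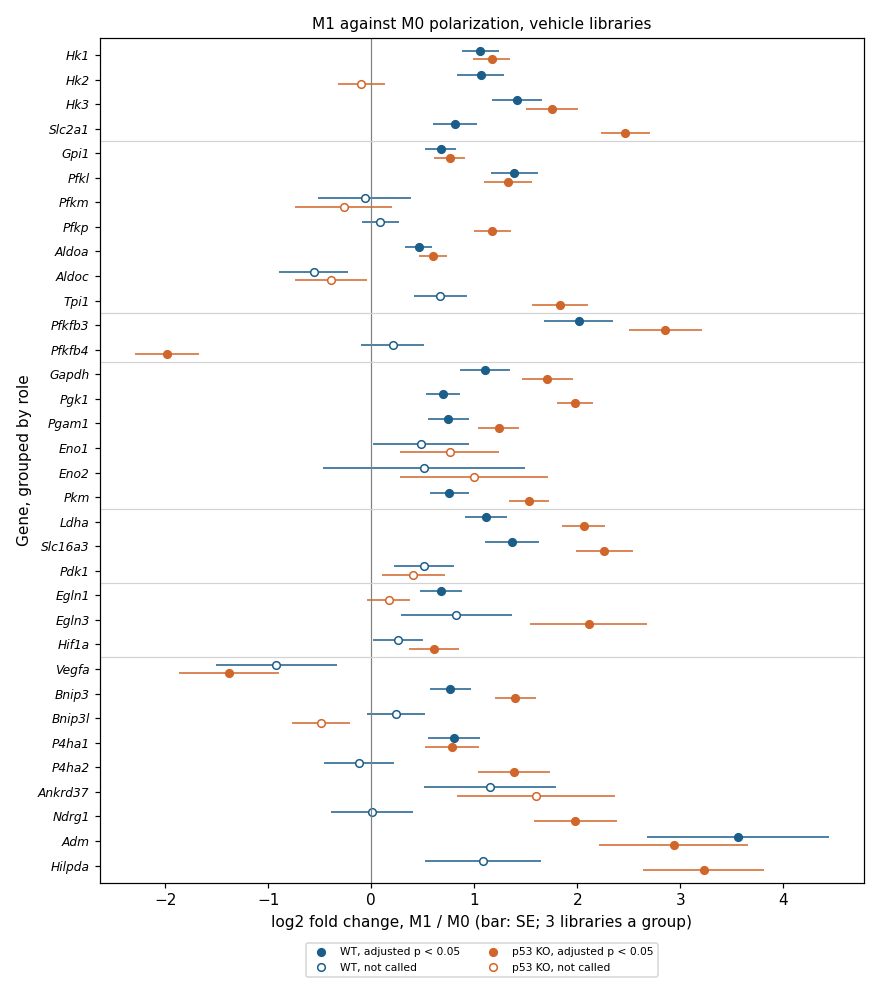
Log2 fold change of M1 against M0 vehicle libraries (x axis) for each of the 34 genes (y axis, grouped by role), in wild-type cells (blue) and p53 knockout cells (orange); bars are standard errors and filled points passed the edgeR test at an adjusted p under 0.05. Slc2a1 lies at 0.81 in wild-type and 2.47 in knockout cells, and Pfkfb4 at -1.98 in knockout cells.

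The knockout rise was steepest for Hilpda, from 17.3, 24.0 and 22.7 CPM in M0 to 290, 92.1 and 217 CPM in M1 (3.23 ± 0.59, edgeR adjusted p = 9.74e-05). The M1 libraries varied widely for this gene and still lay above every M0 library. Pfkfb3 rose from 19.4, 21.2 and 20.6 to 211, 116 and 116 CPM (2.86 ± 0.35, edgeR adjusted p = 3.75e-07), and Slc2a1 from 23.3, 15.4 and 15.4 to 102, 122 and 77.2 CPM (2.47 ± 0.24, edgeR adjusted p = 3.02e-09). Slc16a3 rose from 40.4, 40.6 and 44.6 to 253, 185 and 165 CPM (2.26 ± 0.28, edgeR adjusted p = 2.28e-07). Ldha had a log2 fold change of 2.06 and Pgk1, an ATP-forming step of lower glycolysis, one of 1.98, both called under every alternative tried. Genes called in knockout and not in wild-type cells were Tpi1 (1.83), Pfkp (1.18), Egln3 (2.11), P4ha2 (1.39), Ndrg1 (1.98), Hilpda and Hif1a (0.61), the last losing its call without knockout M0 vehicle replicate 2 or 3 or M1 vehicle replicate 2. The 2 genes that fell were Pfkfb4, the sister enzyme of Pfkfb3, from 39.3, 47.7 and 44.4 to 7.14, 15.4 and 10.5 CPM (-1.98 ± 0.31, edgeR adjusted p = 6.37e-06), and Vegfa, the vascular growth factor, from 32.5, 43.4 and 33.5 to 19.8, 11.4 and 10.9 CPM (-1.38 ± 0.48, edgeR adjusted p = 0.0203). The Vegfa call was lost without knockout M0 vehicle replicate 2 or M1 vehicle replicate 2 or 3, with adjusted p up to 0.0838. In these cells all 10 M1 marker genes rose, against 4 of 10 in wild-type cells. The 7 macrophage genes summed to 16073 to 25150 CPM in knockout M1 against 32252 to 38950 CPM in knockout M0, with 3 higher and 4 lower, whereas in wild-type cells they summed to 43565 to 46541 CPM against 30189 to 38378 CPM, with 3 higher and 0 lower. Neutrophil genes summed to 987 to 2502 CPM in knockout M1 against 578 to 730 CPM in knockout M0. The part of these genes in the results was not tested.

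The difference between genotypes was tested directly as the M1 response in knockout minus that in wild-type cells. It passed for 10 of the 34 genes, 8 with a greater value in knockout cells and 2 with a lower one, where of all genes 11.2% passed as greater, 9.51% as lower and 20.7% in all. For Slc2a1 the difference was 1.65 ± 0.32 on the log2 scale (edgeR adjusted p = 0.000304) and for Pgk1 1.28 ± 0.23 (edgeR adjusted p = 0.000179). The 2 genotypes differed in the starting level: Slc2a1 was at 15.4 to 23.3 CPM in knockout M0 against 59.5 to 78.5 CPM in wild-type M0, whereas in M1 the knockout range of 77.2 to 122 CPM overlapped the wild-type range of 115 to 127 CPM. Pfkp differed by 1.09 ± 0.25 and Ldha by 0.95 ± 0.28. In the other direction were Pfkfb4 (-2.19 ± 0.44, edgeR adjusted p = 0.000497) and Hk2 (-1.16 ± 0.32, edgeR adjusted p = 0.00997). Hk2 was at 140, 134 and 136 CPM in knockout M0 and at 142, 140 and 100 CPM in knockout M1, so the rise seen in wild-type cells was not found there.

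The second question was the same for M2 polarization, and here the set split. In wild-type vehicle cells 6 genes rose and 8 fell, where 12.7% of all genes tested rose, 10.7% fell and 23.4% changed in all; the median log2 fold change of the set was -0.30, beside 0.01 for all genes. With libraries scaled to their total counts alone, 3 rose and 13 fell, where 26% of all genes changed. Pfkp, the platelet-type phosphofructokinase, rose furthest among calls that held under every alternative, from 68.9, 40.4 and 47.5 CPM to 160, 178 and 199 CPM (1.77 ± 0.18, edgeR adjusted p = 7.72e-09). Aldoc, an aldolase isoform, fell from 59.0, 71.7 and 81.3 to 23.9, 7.24 and 19.6 CPM (-2.05 ± 0.36, edgeR adjusted p = 0.000108), and Tpi1 fell from 315, 299 and 250 to 208, 137 and 75.0 CPM (-1.04 ± 0.26, edgeR adjusted p = 0.00412). Neither gene's groups overlapped. Pdk1 fell from 29.2, 34.6 and 24.0 to 18.6, 5.43 and 8.87 CPM (-1.40 ± 0.32, edgeR adjusted p = 0.00146), with a value of -2.04 without wild-type M2 vehicle replicate 1.

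That library, which stood apart in M1 and neutrophil marker genes, decided other values too; the part of those genes was not tested. Hilpda was at 184 CPM in wild-type M2 vehicle replicate 1 and at 29.9 and 26.6 CPM in the others, against 20.7 to 35.2 CPM in M0. Its log2 fold change of 1.63 (edgeR adjusted p = 0.0368) went to 0.11 with an adjusted p of 0.901 without it. For the 8 genes that fell, replicate 1 was the highest of the 3 M2 libraries in all except Egln1. Pfkl, Hif1a and Bnip3 lost their calls without wild-type M0 vehicle replicate 2 or 3 or M2 vehicle replicate 2 or 3, with adjusted p up to 0.231 for Bnip3. Other calls lost without at least 1 library were those of Ndrg1, Egln1, Pgam1, Bnip3l, Hk3 (0.91, adjusted p = 0.0619 without wild-type M0 vehicle replicate 3) and Pfkfb4 (1.06, adjusted p = 0.0714 without M2 vehicle replicate 3). The number of genes called was 7 without wild-type M0 vehicle replicate 2 and 9 without M0 replicate 3. Without M2 vehicle replicates 1, 2 and 3 in turn it was 18, 9 and 8. Same-numbered libraries deviated together in this comparison (correlations of 0.290 to 0.391), but the labels do not say that they were paired. With the number as a block 5 genes rose and 9 fell, Bnip3l being lost at an adjusted p of 0.0597.

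In knockout cells M2 polarization raised 7 genes and lowered 5, where 20.1% of all genes tested rose, 18% fell and 38% changed in all; the median of the set was -0.29, beside 0.02 for all genes. Hk3 rose from 24.6, 25.2 and 17.9 to 92.6, 77.5 and 95.5 CPM (1.97 ± 0.25, edgeR adjusted p = 4.63e-07). Pfkp rose from 44.0, 41.2 and 47.9 to 205, 161 and 149 CPM (1.95 ± 0.18, edgeR adjusted p = 1.3e-09), beside 1.77 in wild-type cells. Slc2a1 rose from 15.4–23.3 to 48.8, 50.9 and 54.3 CPM (1.50 ± 0.23, edgeR adjusted p = 8e-06), Pgk1 by 1.17 and Ldha by 1.10 on the log2 scale. Vegfa fell furthest, from 32.5, 43.4 and 33.5 to 5.84, 3.15 and 2.23 CPM (-3.28 ± 0.54, edgeR adjusted p = 2.38e-05), followed by Aldoc, from 26.5, 39.4 and 39.8 to 10.6, 7.88 and 4.96 CPM (-2.17 ± 0.39, edgeR adjusted p = 6.97e-05). Pfkl and Bnip3 fell by 0.92 and 0.77 on the log2 scale. Tpi1 (0.91) lost its call without knockout M0 vehicle replicate 3, at an adjusted p of 0.0731, and Pfkfb4 (-0.84) lost its call without knockout M0 vehicle replicate 2 or 3 or M2 vehicle replicate 2 or 3. Beside these changes, 7 macrophage genes summed to 18413, 9340 and 5894 CPM in knockout M2 vehicle against 32252 to 38950 CPM in knockout M0 vehicle, with 3 of the 7 lower and 0 higher, and their part was not tested. Pfkp, Pgam1 and Hk3 rose and Bnip3, Pfkl and Aldoc fell in both genotypes, which is 3 of 6 and 3 of 7 of the genes that rose and 3 of 8 and 3 of 5 of those that fell. Here too the overlap was not counted over all genes. Pfkfb4 and Tpi1 changed in opposite directions: the M2 response in knockout minus wild-type was -1.90 ± 0.42 for Pfkfb4 (edgeR adjusted p = 0.00119) and 1.95 ± 0.37 for Tpi1 (edgeR adjusted p = 0.000339). In all, 9 genes passed this test of the difference, 7 in the positive direction and 2 in the negative. Of all genes 13.9% and 13.2% did, and 27.1% in all. By total counts alone the split was 9 and 1, where 27.1% of all genes passed. The number was 5 without wild-type M0 vehicle replicate 1, wild-type M2 vehicle replicate 3 or knockout M2 vehicle replicate 3. Both tests of a difference share the M0 vehicle libraries of both genotypes.

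The third question was how vehicle cells of the 2 genotypes differed. In M0 cells 14 of the 34 genes were lower in the knockout and 2 were higher, where 16.8% of all genes tested were lower, 16.4% higher and 33.2% either. The median difference of the set was -0.62 on the log2 scale, beside 0.03 for all genes. Slc2a1 was at 23.3, 15.4 and 15.4 CPM in knockout and 78.5, 59.5 and 65.9 CPM in wild-type cells (-1.91 ± 0.23, edgeR adjusted p = 5.92e-07). Pgk1 was at 177, 222 and 180 CPM against 601, 538 and 540 CPM (-1.54 ± 0.17, edgeR adjusted p = 1.53e-07), and Tpi1 at 127, 119 and 53 CPM against 315, 299 and 250 CPM (-1.53 ± 0.27, edgeR adjusted p = 7.58e-05). For these 3 genes, and for Ldha (-1.17 ± 0.20), Slc16a3 (-1.16 ± 0.27), Pkm (-1.04 ± 0.19) and Aldoa (-0.63 ± 0.13), the groups did not overlap and the call held under every alternative. Hk3 (-1.03) lost its call without wild-type M0 vehicle replicate 1, at an adjusted p of 0.0846. The calls of Eno1, Aldoc, Gapdh, Hif1a, Pgam1 and Pfkl likewise did not hold with every library left out in turn. Eno1 was at -1.38 from its own reads (edgeR adjusted p = 0.0294) and at -1.14 with the reads of its copies added (edgeR adjusted p = 2.26e-05). The 2 genes higher in the knockout were Vegfa, at 32.5, 43.4 and 33.5 CPM against 4.26, 8.36 and 7.16 CPM (2.47 ± 0.51, edgeR adjusted p = 0.000516), and Pfkfb4, at 39.3, 47.7 and 44.4 CPM against 13.9, 17.0 and 20.7 CPM (1.35 ± 0.30, edgeR adjusted p = 0.00088). The same knockout libraries had the low M1 marker sums given above, with 4 of the 10 M1 marker genes lower; the part of this in the glycolytic genes was not tested.

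In M1 vehicle cells 5 genes were higher and 3 lower in the knockout, where 5.93% of all genes tested were higher, 5.71% lower and 11.6% either; the median of the set was -0.26, beside 0.00 for all genes. By total counts alone 7 were higher and 1 lower, where 17.8% of all genes were either. Pfkp, at 129, 75.2 and 97.1 CPM in knockout and 61.4, 56.4 and 49.1 CPM in wild-type cells, kept its call under every alternative (0.85 ± 0.18, edgeR adjusted p = 0.00215). Hk2 was lower, at 142, 140 and 100 CPM against 256, 234 and 231 CPM (-0.91 ± 0.23, edgeR adjusted p = 0.00919, and 0.0752 without knockout M1 vehicle replicate 3). The others called were Ndrg1 (1.52), Hilpda (1.85), Vegfa (2.01) and Eno2 (2.39), all higher, and Egln1 (-0.63) and Aldoa (-0.49), both lower; each lost its call without at least 2 of the 6 libraries, and the number of genes called fell to 4 without any 1 of the wild-type M1 libraries and to 3 without knockout M1 vehicle replicate 1 or 3. Neutrophil genes summed to 987 to 2502 CPM in knockout M1 vehicle and to 440 to 566 CPM in wild-type M1 vehicle, and their part was not tested.

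In M2 vehicle cells 3 genes were lower and 0 higher in the knockout, where 2.34% of all genes tested were lower, 1.21% higher and 3.56% either; the median of the set was -0.33, beside 0.01 for all genes. Gpi1, the isomerase after hexokinase, was at 230, 260 and 220 CPM in knockout and 393, 301 and 417 CPM in wild-type cells (-0.65 ± 0.15, edgeR adjusted p = 0.0132), and did not hold without wild-type M2 vehicle replicate 3 or knockout replicate 3 (adjusted p = 0.0936). Slc16a3 (-0.99, edgeR adjusted p = 0.0394) and P4ha1 (-0.92, edgeR adjusted p = 0.0467) rested on wild-type M2 vehicle replicate 1: without it they were -0.37 (adjusted p = 0.423) and -0.36 (adjusted p = 0.46). The number called was 1 without that library, 7 without wild-type M2 vehicle replicate 2, 1 without knockout M2 vehicle replicate 1 or 2, and 0 without replicate 3.

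**Figure D3:**
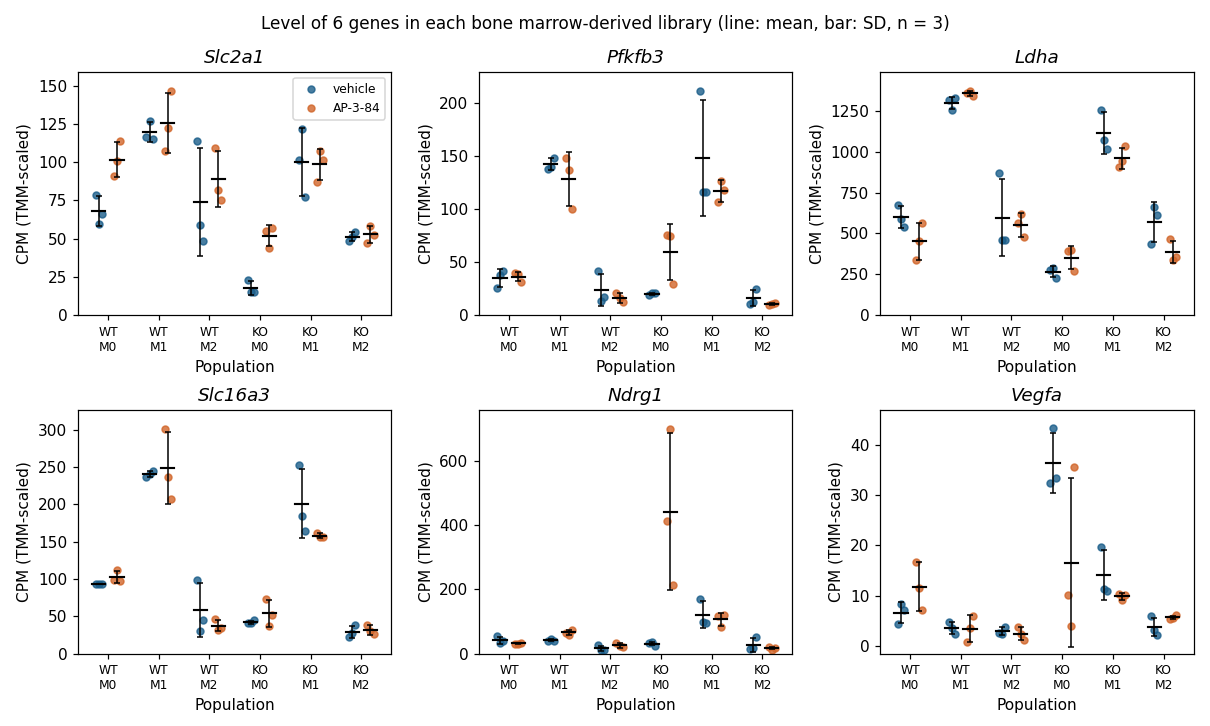
Level of 6 genes in CPM (y axis, starting near 0) in each bone marrow-derived library, by genotype and polarization (x axis), for vehicle (blue) and AP-3-84 (orange); lines are means and bars standard deviations of 3 libraries. Slc2a1 in knockout M0 vehicle lies at 15.4 to 23.3 CPM, below every other group, and Ndrg1 stands at 213 to 700 CPM in knockout M0 cells given AP-3-84.

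The main question of the study concerned AP-3-84. In bone marrow-derived cells genes of the set were called for the compound in knockout M0 cells, where 11 rose and 1 fell. Of all genes tested there 12.1% rose, 8.57% fell and 20.7% changed in all. The median log2 fold change of the set was 0.32, beside -0.03 for all genes. By total counts alone 7 rose and 2 fell, where 19.9% of all genes changed. The knockout M0 vehicle libraries used here are those described above. There, 14 of the 34 genes were lower and 2 higher than in wild-type M0 vehicle cells, and the M1 marker sums were low. These results are therefore not independent of that comparison, and the part of the shared vehicle libraries was not tested. The plot of both genotypes by gene shows the 11 genes that rose in knockout cells to the right of 0 and Bnip3l to the left, with none called in wild-type cells.

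**Figure D4:**
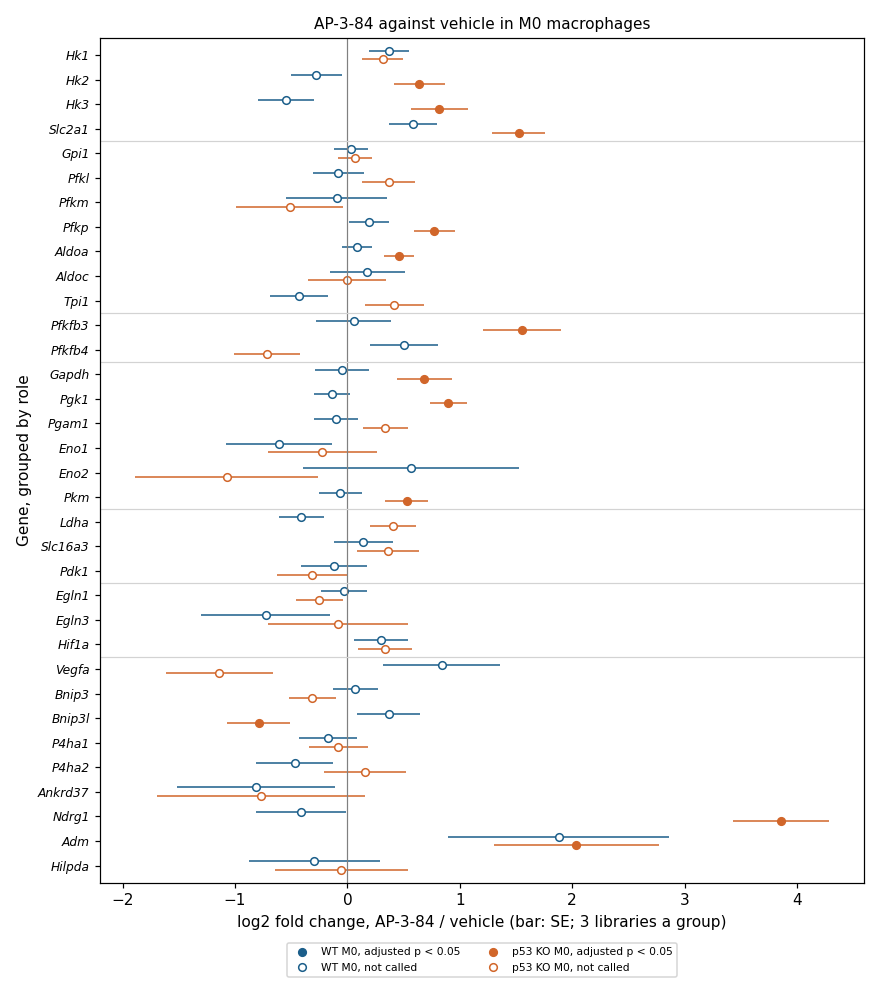
Log2 fold change of AP-3-84 against vehicle (x axis) in M0 macrophages for each of the 34 genes (y axis, grouped by role), in wild-type (blue) and p53 knockout cells (orange); bars are standard errors and filled points passed the edgeR test at an adjusted p under 0.05. Ndrg1 lies at 3.86 in knockout and -0.41 in wild-type cells.

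Ndrg1, a stress gene induced by low oxygen and by iron loss, stood out. It was at 32.2, 34.8 and 24.6 CPM in knockout M0 vehicle and at 414, 700 and 213 CPM with AP-3-84, with a wide gap between the groups (3.86 ± 0.43, edgeR adjusted p = 7.67e-07). In wild-type M0 cells it was at 53.4, 31.5 and 40.4 CPM with vehicle and 30.3, 30.1 and 33.8 CPM with the compound (-0.41 ± 0.40, edgeR adjusted p = 0.773). The difference between the genotypes was 4.27 ± 0.58 (edgeR adjusted p = 2.74e-05). No other bone marrow-derived group had a library over 169 CPM.

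Slc2a1 rose in knockout M0 cells from 23.3, 15.4 and 15.4 to 55.3, 43.9 and 56.9 CPM (1.52 ± 0.24, edgeR adjusted p = 2.6e-05). Those values stayed under the 59.5 to 78.5 CPM of wild-type M0 vehicle. In wild-type M0 cells Slc2a1 was at 90.8, 101 and 114 CPM with AP-3-84, all above vehicle, but did not pass the test (0.58 ± 0.22, edgeR adjusted p = 0.386). Pgk1 rose in knockout cells from 177, 222 and 180 to 409, 403 and 267 CPM (0.90 ± 0.17, edgeR adjusted p = 0.000271), and differed from wild-type cells by 1.04 ± 0.23 (edgeR adjusted p = 0.00288). Pfkfb3 rose from 19.4, 21.2 and 20.6 to 75.0, 74.7 and 29.4 CPM (1.55 ± 0.35, edgeR adjusted p = 0.00216), and Pfkp from 44.0, 41.2 and 47.9 to 79.8, 83.6 and 64.3 CPM (0.77 ± 0.18, edgeR adjusted p = 0.00242). These 5 genes kept their call under every alternative. Replicate 3 was the lowest library with AP-3-84 for Ndrg1, Pgk1, Pfkfb3 and Pfkp, and the highest for Slc2a1. That library was also the lowest in the sum of M1 marker genes, and a link was not tested.

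The other 7 calls in knockout M0 cells were weaker. Adm (2.04, edgeR adjusted p = 0.0461), Hk3 (0.82, edgeR adjusted p = 0.0214), Gapdh (0.68, edgeR adjusted p = 0.0444), Hk2 (0.64, edgeR adjusted p = 0.0426), Pkm (0.53, edgeR adjusted p = 0.0445) and Aldoa (0.46, edgeR adjusted p = 0.0142) rose, and Bnip3l, a mitophagy receptor, fell (-0.79, edgeR adjusted p = 0.0458). Each lost its call without at least 2 of the 6 libraries, and Bnip3l was -1.38 without AP-3-84 replicate 3. The number of genes called fell to 6 without knockout M0 vehicle replicate 1 or AP-3-84 replicate 2, and to 7 without vehicle replicate 3 or AP-3-84 replicate 1. Vegfa was at 10.1, 3.95 and 35.7 CPM with the compound against 32.5 to 43.4 CPM with vehicle, and did not pass (-1.14 ± 0.48, edgeR adjusted p = 0.0868); without AP-3-84 replicate 3 it did (-2.37, adjusted p = 0.000227). The M1 marker genes summed to 681, 407 and 135 CPM in these cells with AP-3-84 against 34.6 to 38.8 CPM with vehicle. Of these 10 genes, 4 were called higher. The 7 macrophage genes summed to 38791, 17926 and 29060 CPM with AP-3-84 against 32252 to 38950 CPM with vehicle, and 2 rose and 3 fell. B cell genes summed to 16.2, 22.7 and 6.62 CPM against 2.16 to 5.23 CPM, and the 1 gene tested rose. The part of all these marker genes in the results was not tested.

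In the other 5 bone marrow-derived populations 0 of the 34 genes passed the edgeR test for AP-3-84, and DESeq2 called 0 as well. The share of all genes called was 0.144% in wild-type M0, 0.017% in wild-type M1, 1.21% in wild-type M2, 0% in knockout M1 and 0.0509% in knockout M2. At an unadjusted p under 0.05 there were 4, 3, 4, 1 and 3 of the 34. The share of all genes under that unadjusted limit was not counted, so these numbers are not shown to be particular to the set. The medians of the set were -0.05, 0.07, -0.11, -0.23 and -0.10 on the log2 scale in the same order. Of the difference between genotypes in the response to the compound, 9 genes passed in M0 cells, 7 in the positive direction and 2 in the negative, where of all genes 10% and 6.99% did and 17% in all. That number was 3 without wild-type vehicle replicate 1, wild-type AP-3-84 replicate 1 or 2, or knockout vehicle replicate 3. It was 4 without wild-type vehicle replicate 2 or knockout AP-3-84 replicate 1 or 2, and 5 without knockout vehicle replicate 1 or 2. In M1 cells 0 passed by edgeR and by DESeq2, where 0.00849% of all genes were called. At an unadjusted p under 0.05 there were 3, again without a count over all genes. In M2 cells 1 passed, in the negative direction, where 0.688% of all genes passed in that direction, 1.08% in the other and 1.77% in all: P4ha2, at 11.4, 3.32 and 5.07 CPM with vehicle and 12.0, 12.6 and 10.8 CPM with the compound in wild-type cells, and at 4.51, 11.5 and 11.7 and 5.10, 2.99 and 3.84 CPM in knockout cells (-2.05 ± 0.53, edgeR adjusted p = 0.0372). It was lost without wild-type vehicle replicate 2 or 3 or AP-3-84 replicate 1 or 2, and without knockout vehicle or AP-3-84 replicate 2 or 3, with adjusted p up to 0.137. For the compound in knockout M2 cells, 2 genes were called without knockout M2 vehicle replicate 1.

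In the peritoneal macrophages, the vehicle libraries from ascites and after thioglycollate differed for many of the genes. In ascites cells 11 of the 34 were higher and 8 lower, where 20.3% of the 16955 genes tested were higher, 13.4% lower and 33.7% either; the median of the set was 0.02, beside 0.05 for all genes. Pgk1 was at 172, 169 and 179 CPM in ascites and 98.0, 99.5 and 98.1 CPM in thioglycollate cells (0.82 ± 0.06, edgeR adjusted p = 4.81e-09). Hif1a was at 134, 121 and 123 CPM against 68.0, 67.7 and 81.3 CPM (0.80 ± 0.09, edgeR adjusted p = 9.03e-07). P4ha1 (0.68), Slc16a3 (0.65), Gapdh (0.54) and Hk2 (0.44) were also higher, each under every alternative. Eno1 was higher by 0.77, and by 0.72 with the reads of its copies added.

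Lower in ascites were several other targets of low oxygen and 1 hexokinase. Eno2, the neuronal enolase, was at 0.659, 1.43 and 1.19 CPM in ascites and 9.64, 10.7 and 8.30 CPM in thioglycollate cells (-3.10 ± 0.27, edgeR adjusted p = 6.7e-08). Hilpda was at 33.2, 35.2 and 36.5 CPM against 106, 104 and 107 CPM (-1.60 ± 0.09, edgeR adjusted p = 1.35e-10), and Bnip3l at 136, 143 and 146 CPM against 441, 399 and 431 CPM (-1.58 ± 0.07, edgeR adjusted p = 5e-12). Ndrg1 was at 12.3, 9.66 and 11.4 CPM against 22.7, 19.4 and 24.4 CPM, and with Hk3 (-1.15) and Pgam1 (-0.50) it was lower under every alternative. Genes of the same pathway thus lay on both sides, Pgk1 and Hif1a above and Hilpda, Bnip3l and Ndrg1 below. The smaller differences of Pfkl, Slc2a1, Gpi1, Pfkfb4, Pkm and Pdk1 each lost their call without at least 2 of the 6 libraries. Of 7 epithelial and mesothelial genes all 7 were higher in ascites, with sums of 210 to 247 CPM in ascites vehicle against 2.55 to 4.66 CPM in thioglycollate vehicle. Of the M1 marker genes 7 of 8 tested were higher, with sums of 274 to 317 CPM against 8.32 to 13.3 CPM, and of the M2 marker genes 7 of 9 were higher and 1 lower. Neutrophil genes summed to 29.13 to 34.03 CPM in ascites against 61.8 to 65.3 CPM. The part of these genes in the differences was not tested.

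**Figure D5:**
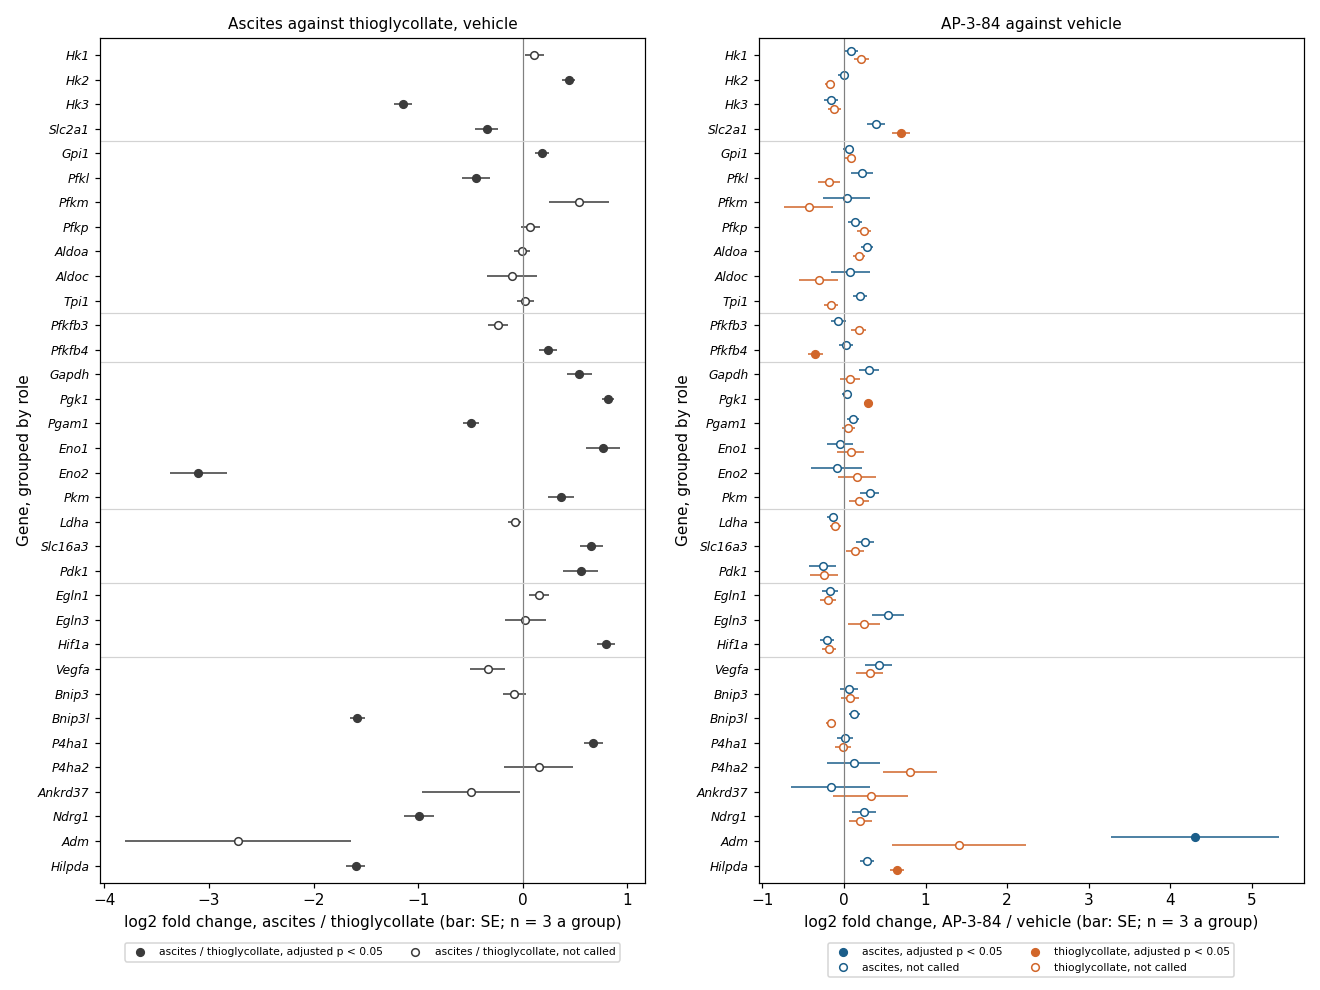
Log2 fold changes of the 34 genes (y axis, grouped by role) in peritoneal macrophages: ascites against thioglycollate vehicle cells on the left, and AP-3-84 against vehicle in ascites (blue) and thioglycollate cells (orange) on the right; bars are standard errors and filled points passed the edgeR test at an adjusted p under 0.05. On the left Eno2 lies at -3.10 and Pgk1 at 0.82; on the right the called values of thioglycollate cells lie between -0.35 and 0.69.

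AP-3-84 moved few of the genes in peritoneal cells. After thioglycollate 3 rose and 1 fell, where 2.51% of all genes tested rose, 1.82% fell and 4.32% changed in all; the median of the set was 0.08, beside 0.03 for all genes. Slc2a1 rose from 38.4, 37.3 and 36.7 to 67.5, 57.6 and 56.6 CPM (0.69 ± 0.11, edgeR adjusted p = 0.00109). Hilpda rose from 106, 104 and 107 to 172, 158 and 170 CPM (0.65 ± 0.08, edgeR adjusted p = 0.000151), and Pgk1 from 98.0, 99.5 and 98.1 to 123, 119 and 121 CPM (0.30 ± 0.06, edgeR adjusted p = 0.00615). The groups of these 3 genes did not overlap and the calls held under every alternative. Pfkfb4 fell from 33.5, 33.6 and 34.8 to 25.7, 26.8 and 27.5 CPM (-0.35 ± 0.09, edgeR adjusted p = 0.033), and lost its call without any 1 of the 6 libraries, with adjusted p up to 0.12. The 7 macrophage genes summed to 27578 to 32739 CPM with the compound against 34284 to 34749 CPM with vehicle, with 3 lower and 0 higher, and their part was not tested. Adm was at 0, 0.425 and 0.759 CPM with vehicle and 0.839, 1.34 and 1.07 CPM with the compound, 21 against 49 counts in all, a ratio of 2.57 with a 95% counting interval of 1.51 to 4.51. It did not pass the test (1.41 ± 0.82, edgeR adjusted p = 0.443).

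In ascites cells AP-3-84 raised 1 gene of the set, Adm, where 1.69% of all genes tested rose, 0.1% fell and 1.79% changed in all; the median of the set was 0.08, beside -0.00 for all genes. With no filter on low counts 6 genes of the set rose, where 1.67% of all genes changed. Adm was at 0.120, 0.0493 and 0 CPM with vehicle and 1.76, 0.812 and 1.08 CPM with the compound. That was 3 counts against 59, a ratio of 21.6 with a 95% counting interval of 7.03 to 108, which covers counting error only (edgeR adjusted p = 0.0404). The call was lost without any 1 of the 6 libraries, with adjusted p up to 0.201. Slc2a1 was at 33.3, 28.9 and 26.3 CPM with vehicle and 33.1, 43.0 and 39.7 CPM with the compound and did not pass (0.39 ± 0.11, edgeR adjusted p = 0.106); without ascites AP-3-84 replicate 1 it did, at 0.0284, and with no filter on low counts at 0.0185. Hilpda did not overlap, at 33.2 to 36.5 against 38.7 to 49.6 CPM, and did not pass either (0.28 ± 0.09, edgeR adjusted p = 0.156).

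The response to AP-3-84 in ascites minus that after thioglycollate passed for 0 of the 34 genes by edgeR and by DESeq2. Of all genes 0.118% were called. At an unadjusted p under 0.05 there were 6 of the 34, and all genes were not counted at that limit. For Slc2a1 the difference was -0.30 ± 0.16 (edgeR adjusted p = 0.687), for Hilpda -0.37 ± 0.12 (edgeR adjusted p = 0.445) and for Pgk1 -0.27 ± 0.08 (edgeR adjusted p = 0.445). A call in thioglycollate and not in ascites cells is therefore not shown to be a difference between them.

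Other genes of the same pathways were listed apart from the 34. Those named here were chosen after their values were seen. With M1 polarization 10 of 44 other hypoxia genes rose and 1 fell in wild-type cells, and 16 rose and 9 fell in knockout cells. Beside these stand the shares over all genes given above, 8.01% and 7.49% in wild-type and 22.8% and 21.8% in knockout cells, so that the falls in knockout cells were near the share over all genes. Among them were Ero1l, an oxidase of protein folding (1.13 ± 0.26 in wild-type, edgeR adjusted p = 0.00352, and 2.82 ± 0.28 in knockout cells, edgeR adjusted p = 1.05e-08), and Mif, a cytokine (1.05 and 1.69). The same shares over all genes apply to the lists named next. Of 20 other genes of pyruvate and lactate handling, 1 rose and 2 fell in wild-type cells, and 8 rose and 4 fell in knockout cells. Of 7 other genes of sugar uptake and phosphorylation, 3 rose and 0 fell, and 3 rose and 2 fell. Of 10 pentose phosphate genes tested, 1 rose and 1 fell, and 2 rose and 3 fell. Bsg, the chaperone of the lactate exporter, rose by 0.82 and 1.14 on the log2 scale and the glucose transporter Slc2a6 by 1.36 and 1.56. The pentose phosphate gene Taldo1 fell by 0.98 and 1.05. With M2 polarization 5 of the 44 rose and 1 fell in wild-type cells, and 9 rose and 12 fell in knockout cells, where 12.7% and 10.7%, and 20.1% and 18%, of all genes did. Of 7 other genes of sugar uptake and phosphorylation, 2 rose and 1 fell in wild-type cells, and 1 rose and 2 fell in knockout cells. Slc2a6 rose by 2.51 and 2.42, and Tfrc, the transferrin receptor, by 2.46 and 4.61. In peritoneal cells AP-3-84 raised 2 of 11 pentose phosphate genes in each population, where 1.69% of all genes rose in ascites and 2.51% after thioglycollate: Pgd by 0.49 ± 0.05 in ascites (edgeR adjusted p = 1.37e-05) and 0.62 ± 0.05 after thioglycollate (edgeR adjusted p = 1.29e-06), and Taldo1 by 0.30 in each. Of 45 other hypoxia genes tested in these cells, 4 rose and 0 fell in ascites, and 4 rose and 2 fell after thioglycollate. Of all genes, 0.1% and 1.82% fell. The phosphatase gene Dusp1 rose by 1.43 and 1.73, and the glycogen branching enzyme Gbe1 by 0.67 and 0.64. In knockout M0 cells 2 of the 44 other hypoxia genes rose and 6 fell with the compound, where 12.1% and 8.57% of all genes did, and of 16 genes of oxygen sensing 4 rose and 1 fell. The compound raised the oxygen sensor Egln2 by 1.41 ± 0.20 (edgeR adjusted p = 6.8e-06) and lowered Angptl4, a lipase inhibitor, by 2.65 on the log2 scale (edgeR adjusted p = 0.00735), and in wild-type M0 cells 1 of the 44 other hypoxia genes passed, Nampt, an enzyme of NAD synthesis (1.12, edgeR adjusted p = 0.00642), where 0.144% of all genes did.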

How the data were processed

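RNA levels in 48 macrophage libraries were taken from 1 deposited table of raw counts, whole reads per gene, with Ensembl gene IDs. The submitters' processing notes name Bowtie2, RSEM and DESeq2 without their roles or versions, and what genome build and annotation lie behind the counts is not given in the sources used here. Of the IDs, 51596 of 51789 were paired with a symbol through GENCODE M21. The kit reads 1 tag near the 3′ end of each transcript, in single reads of 75 bases, so levels depend on how well that end is annotated and unique. For Eno1 the near copies held 121% of its own reads in peritoneal and 263% in bone marrow-derived cells.

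Counts were analysed with edgeR 4.0.16 in R 4.3.3 (TMM scaling, filter on low counts by group, robust quasi-likelihood fit and two-sided test, Benjamini-Hochberg adjustment over all genes of a fit). The 12 peritoneal libraries (16955 genes tested) and the 36 bone marrow-derived libraries (11779 genes) were fitted apart, each with 1 term per group, so that the biological coefficient of variation, 0.168 and 0.225, was shared over groups. Standard errors were derived from the F statistic. Differences between responses were contrasts of 4 groups. The fit was tested on simulated counts: for M1 against M0 in wild-type cells it recovered 86.4% of genes changed 4-fold, 49.3% of those changed 2-fold and 4.5% of those changed 1.5-fold among 11779 genes. For AP-3-84 in ascites cells it recovered 66.7%, 53.7% and 29.9% among 16955 genes, and 6 of 106 calls were false, against 0 of 93 in the former. Alternatives were median-ratio size factors, total counts alone, no filter on low counts, DESeq2 1.42.0, a block for the replicate number, and each library left out in turn; adding the reads of near copies was chosen after seeing the data. Same-numbered libraries deviated together, with every correlation over 0.1, only for M2 against M0 in wild-type vehicle cells (0.290 to 0.391). Counting intervals cover counting error only. Figures were drawn with matplotlib 3.10.9 in Python 3.11.15.

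The members, gene lists and tests were chosen with earlier results of these data known. Full statistics were to be given for the 5 members with the largest change in each direction of a comparison and for 18 fixed members, among them Slc2a1, Hk1 to Hk3, Ldha, Vegfa, Ndrg1 and Hilpda; other members with printed values were chosen after their values were seen.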

Additional observations from a re-analysis of the deposited data

Results flagged for a closer look

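In 29 cases a test of the difference itself found that a gene responded differently in p53 knockout and wild-type cells (edgeR, adjusted over all genes of the fit). All comparisons with M0 cells share the same knockout and wild-type M0 vehicle libraries, so the values below are not independent of each other. Differences are the knockout response minus the wild-type response on the log2 scale.

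For AP-3-84 in M0 cells the difference was 4.27 for Ndrg1, 1.50 for Pfkfb3, 1.37 for Hk3, 1.04 for Pgk1, 0.94 for Slc2a1, 0.92 for Hk2 and 0.81 for Ldha. It was negative for Pfkfb4 at -1.22 and for Bnip3l at -1.16. Ndrg1 and Pgk1 kept their call under every alternative. Ldha was at 279, 292 and 229 CPM in knockout vehicle and 394, 396 and 269 CPM with the compound, against 673, 590 and 537 and then 338, 452 and 565 CPM in wild-type cells, and passed in neither genotype alone (0.40 and -0.41). For AP-3-84 in M2 cells the difference was -2.05 for P4ha2.

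For M1 against M0 vehicle cells the difference was 1.97 for Ndrg1, 1.65 for Slc2a1, 1.51 for P4ha2, 1.28 for Pgk1, 1.16 for Tpi1, 1.09 for Pfkp, 0.95 for Ldha and 0.78 for Pkm. It was -2.19 for Pfkfb4 and -1.16 for Hk2. All except P4ha2, Tpi1 and Pkm kept their call under every alternative.

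For M2 against M0 vehicle cells the difference was 2.17 for Eno1, 1.95 for Tpi1, 1.38 for Slc2a1, 1.35 for Pgk1, 1.10 for Ldha, 1.06 for Hk3 and 0.70 for Pkm. It was -3.14 for Eno2 and -1.90 for Pfkfb4. Eno1 went to 1.09 with the reads of its near copies added. Eno2 rested on levels of 0.224 to 4.12 CPM and was lost without any of 8 of the 12 libraries. Slc2a1, Pgk1, Ldha, Tpi1 and Pfkfb4 kept their call under every alternative.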

How the results depend on the processing

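Of 161 calls of single genes, 91 kept direction and call under every alternative, 34 were lost under an alternative other than leaving out a library and 66 when 1 library was left out; none of the called values reversed. The number of genes called moved by over 1.5 times in 52 of 300 recounts. With no filter on low counts it was 6 for AP-3-84 in ascites cells, 1 in wild-type M1 and 1 in knockout M2 cells, 9 for knockout against wild-type M2 vehicle cells, and 1 and 2 for the difference between genotypes in the response to AP-3-84 in M1 and M2 cells. Of all genes, 1.67%, 1.01%, 2.53%, 4.21%, 0.712% and 3.32% changed with no filter, in the same order. With total counts alone the number of genes called was 11 for M1 against M0 in wild-type cells. It was 1 for knockout against wild-type M2 vehicle cells. Of all genes 22.1% and 5.43% changed in these 2 comparisons. DESeq2 gave 5 for the latter, where 6.87% of all genes changed. Scaling by total counts alone put the median of all genes at -0.30 for M1 and -0.20 for M2 against M0 in wild-type cells. It was 0.27 and 0.19 for knockout against wild-type M1 and M2 cells, and 0.14 for ascites against thioglycollate. The medians in the main fit were 0.00, 0.01, 0.00, 0.01 and 0.05 in the same order. With the reads of its copies added, Eno1 passed as higher for M1 against M0 in both genotypes and for M2 against M0 in knockout cells. It passed as lower for knockout against wild-type M1 vehicle cells. Its own reads passed in none of these.

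The replicate block took the 1 call for AP-3-84 in ascites cells to 0 and moved no other number of calls by over 1.5 times. The labels link same-numbered libraries of different groups by the number only. Leaving out 1 library gave 0 to 1 genes for AP-3-84 in ascites cells, 6 to 15 in knockout M0 cells and 0 to 2 in knockout M2 cells. It gave 7 to 18 for M2 against M0 in wild-type cells, and 3 to 10 and 0 to 7 for knockout against wild-type in M1 and M2 vehicle cells. For the differences between genotypes it gave 3 to 12 for AP-3-84 in M0 cells, 0 to 1 in M2 cells and 5 to 12 for M2 against M0. The cause of these shifts was not tested. Groups of 3, and the lower depth of the bone marrow-derived libraries, limit the precision, most for Adm, Eno2 and Ankrd37.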
